A study of Mus musculus with 4 samples.

Results

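The acute phase proteins are plasma proteins, made largely by hepatocytes, whose blood level shifts during infection, injury and inflammation. In all, 10 genes of this kind were described here across 4 arrays of fetal mouse liver: Hp, Hpx, Cp, Saa4, Crp, Apcs, Serpina3n, Lcn2, Orm1 and Itih4. They were taken by symbol, through the probe sets whose platform annotation names exactly that 1 gene. Each was represented by its brightest probe set, and further probe sets served as a check. All 10 genes had such a probe set, and 9 of them were among the 11691 genes bright enough to be tested. Orm1 was too dim.

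The liver came from C57BL/6 fetuses on day 17 of gestation, with the biliary system cut away before RNA extraction. Wildtype and Sox17+/- fetuses were sired by Sox17+/- males on females of the C57BL/6 strain, and 2 biological replicates of each genotype were hybridised, 1 array per replicate. Sox17 encodes a SOX family transcription factor with known roles in endoderm, bile ducts and arterial endothelium. How the Sox17 allele was altered, and how many fetuses made up 1 replicate, is not given in the sources used here. At issue was how the liver transcriptome of Sox17+/- fetuses differs from that of wildtype fetuses.

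Transcription of acute phase genes in hepatocytes is driven mainly by interleukin 6, which acts through the receptor subunit gp130, Janus kinases and STAT3, and by interleukin 1 and tumour necrosis factor, which act through NF-kB. C/EBP factors and the glucocorticoid receptor act together with both routes. Positive acute phase proteins increase in plasma under this stimulus and negative ones, such as albumin and transthyretin, decrease. In the mouse, serum amyloid P, the product of Apcs, is a strong reactant and C-reactive protein a weak one, while serum amyloid A4 is largely constitutive. The fetal liver is also a site of blood formation, so a gene such as Lcn2, which granulocyte precursors make as well, can be read from more than 1 cell type. In whole tissue, fewer cells of a type and less RNA per cell cannot be told apart.

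Values are probe set signals on a linear scale, brought to a trimmed mean of 500 on each array. Median signals were 84.7 to 103. The brightest signals reached 56988 and 56860 on the arrays numbered 1 in the labels, and 34407 and 32468 on those numbered 2. Same-numbered arrays also share a code in their names, and neither is explained in the sources used here. Wildtype array 1 stood apart in its actin control, with 11909 for the 3' probe set of Actb where the remaining arrays had 24712 to 35014. The gap was wider on the other probe sets of the transcript, a comparison that is used as a sign of RNA quality. The middle probe set had 4563 against 19843 to 23935, and the 5' probe set 6102 against 20511 to 24424. Gapdh, another such control, did not set this array apart. Its 3' and 5' probe sets had 27187 and 31855, beside 28573 and 33883 on heterozygous array 1. On wildtype array 2 they had 18514 and 22952, and on heterozygous array 2 19180 and 23057. Signal for Sox17 on its brighter probe set was 244 and 264 in wildtype and 139 and 124 in heterozygous liver, so the heterozygous arrays lay below the wildtype arrays. Of 13 hepatocyte markers on the array 12 were bright enough to be tested, the exception being Tat, tyrosine aminotransferase, with 92.9 and 27.5 in wildtype and 34.5 and 26.7 in heterozygous liver. Log2 differences and their intervals below are on the log2(signal + 16) scale, which understates differences of dim genes, and ratios and folds are of the signals themselves.

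In the fit by genotype alone, none of the 9 tested acute phase genes differed between the genotypes beyond the spread of the replicates. That spread includes the difference between array numbers. For these 9 genes the signals of the heterozygous arrays overlapped those of the wildtype arrays, with 0 of 9 lying wholly below and 0 of 9 wholly above, where 18.6% and 14.5% of all tested genes did so. The arrays numbered 1 both lay above the arrays numbered 2 for 8 of 9 genes, against 22.0% of all tested genes. Serpina3n was the exception. A gene with this order of arrays can lie neither wholly below nor wholly above by genotype. For those 8 genes the overlap was thus fixed by the array number, and the counts of 0 of 9 are not a result about genotype. The same limit holds for genes with this order in the lists below. Within same-numbered arrays, Hp, Hpx, Crp, Apcs and Itih4 were lower in heterozygous liver in both pairs and Lcn2 was higher in both. That is 5 of 9 lower against 32.2% of all tested genes, and 1 of 9 higher against 25.5%. By limma, 0 of 9 genes passed an adjusted p of 0.05, as did 0% of all 22519 probe sets tested. At an unadjusted p under 0.05, 0 of 9 genes passed, and of all probe sets 402 were higher and 521 lower.

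**Figure D1:**
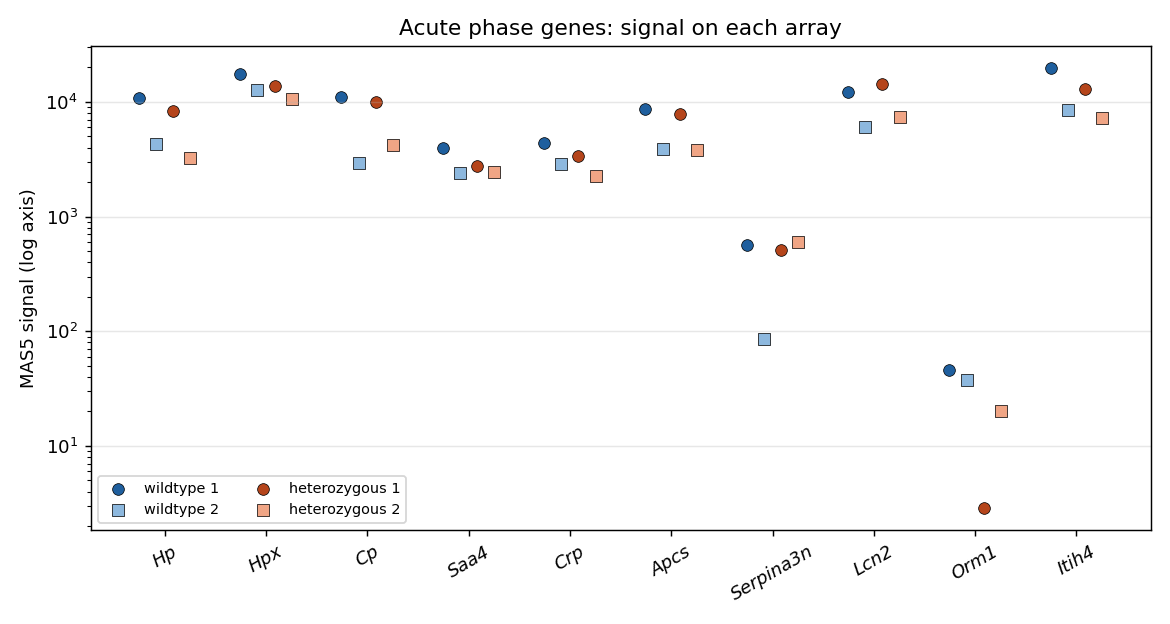
MAS5 signal (log axis) of the 10 acute phase genes on the 4 arrays, blue for wildtype and red for heterozygous liver, with circles for arrays numbered 1 and squares for arrays numbered 2; each point is 1 array. For 8 of the 9 tested genes both circles lie above both squares, and for Serpina3n only the wildtype array numbered 2 is low, at 85.

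Hp and Hpx encode the scavengers of free haemoglobin and free haem. Hp, haptoglobin, had signals of 10777 and 4291 on wildtype arrays 1 and 2 and of 8381 and 3212 on heterozygous arrays 1 and 2. Each heterozygous array was lower than the wildtype array of its number, with ratios of 0.778 and 0.748, but the arrays numbered 1 exceeded those numbered 2 by 2.51-fold in wildtype and 2.61-fold in heterozygous liver. The genotype means were 7534 ± 4586 in wildtype and 5796 ± 3655 in heterozygous liver (SD, n = 2 each). The log2 difference, heterozygous minus wildtype, was -0.39 with a standard error of 0.62 and a 95% interval from -1.97 to 1.19 (limma adjusted p = 1).

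Hpx, haemopexin, which binds haem and delivers it to hepatocytes, had signals of 17513 and 12649 in wildtype and 13790 and 10561 in heterozygous liver. Both ratios within number, 0.787 and 0.835, were again below 1. The array number moved Hpx less than Hp, by 1.38-fold in wildtype and 1.31-fold in heterozygous liver. The means were 15081 ± 3439 and 12176 ± 2283 (SD, n = 2 each), and the log2 difference was -0.30 with a 95% interval from -0.99 to 0.38 (limma adjusted p = 1). This was the narrowest interval among the 9 genes.

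Receptors and enzymes that act after these scavengers were measured as well. Lrp1, the receptor for haem-bound haemopexin, had signals of 726 and 771 in wildtype and 606 and 689 in heterozygous liver, with both heterozygous arrays below both wildtype arrays and a log2 difference of -0.21 (limma adjusted p = 1). Cd163, the macrophage receptor for haptoglobin bound to haemoglobin, was too dim to be tested, at 107 and 52.3 against 72.3 and 70.1. Hmox1, the haem-degrading enzyme haem oxygenase, had 2261 and 4948 in wildtype and 9123 and 7538 in heterozygous liver, with both heterozygous arrays above both wildtype arrays. Its log2 difference of 1.31 did not pass the limma test (adjusted p = 1).

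Cp encodes ceruloplasmin, the copper-carrying ferroxidase that works with the iron exporter ferroportin. Its brightest probe set had signals of 11130 and 2919 in wildtype and 10058 and 4237 in heterozygous liver. The arrays differed more by number, 3.81-fold in wildtype and 2.37-fold in heterozygous liver, and the genotype means were close, 7024 ± 5806 and 7148 ± 4116 (SD, n = 2 each). Within number the direction turned, with a ratio of 0.904 for the arrays numbered 1 and 1.45 for those numbered 2. The log2 difference was 0.19 with a 95% interval from -1.67 to 2.06 (limma adjusted p = 1).

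Cp had 8 probe sets that name it alone, and the 5 bright enough to be tested all gave 1 order of arrays. On each, wildtype array 1 was highest, then heterozygous array 1, heterozygous array 2 and wildtype array 2. The second brightest had 7826 and 2425 in wildtype and 6838 and 3025 in heterozygous liver, and the dimmest of the 5 had 1727 and 994 against 1375 and 1237. The log2 differences between genotypes on the 5 probe sets lay between -0.01 and 0.19. The remaining 3 probe sets had signals of 79.0 or less on every array. Heph, the membrane-bound relative of ceruloplasmin, had 141 and 122 in wildtype and 69.7 and 89.3 in heterozygous liver, with a log2 difference of -0.63 (limma adjusted p = 1). Slc40a1, which encodes ferroportin, had 8350 and 7486 in wildtype and 9043 and 7618 in heterozygous liver.

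**Figure D2:**
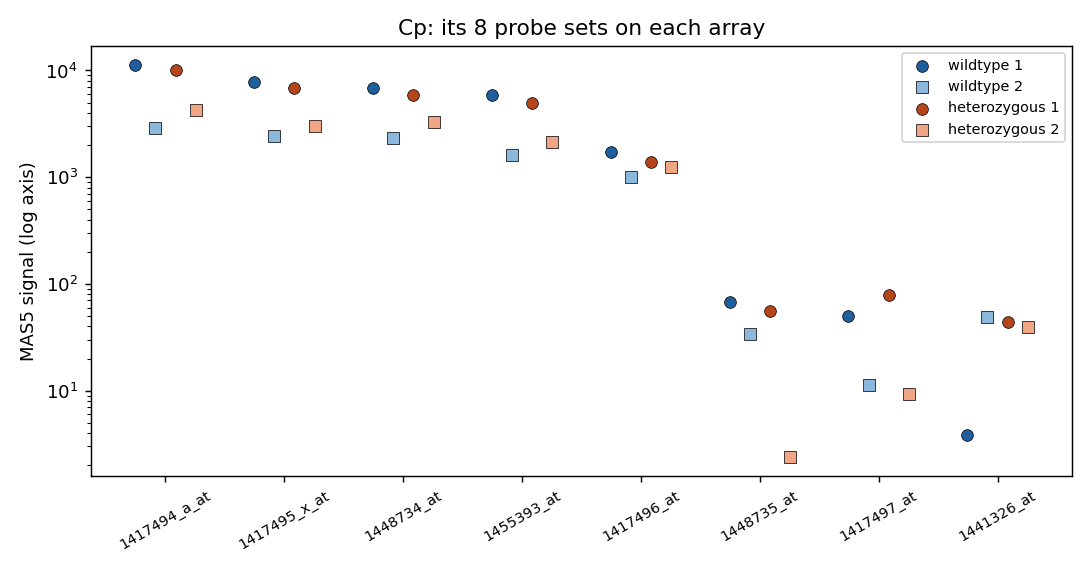
MAS5 signal (log axis) of the 8 probe sets that name Cp alone, by array, each point 1 array, with colours for genotype and shapes for array number. On the 5 brightest probe sets both arrays numbered 1 lie above both numbered 2, and the other 3 have signals of 79.0 or less.

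Lcn2 encodes lipocalin 2, which withholds iron from bacteria by binding their siderophores and is stored in the specific granules of neutrophils. Its only probe set had signals of 12149 and 6064 in wildtype and 14433 and 7321 in heterozygous liver. Lcn2 was the only tested acute phase gene that was higher in heterozygous liver within both numbers, with ratios of 1.19 and 1.21. The genotypes overlapped, at 9107 ± 4302 and 10877 ± 5029 (SD, n = 2 each), and the arrays numbered 1 exceeded those numbered 2 by 2-fold in wildtype and 1.97-fold in heterozygous liver. The log2 difference was 0.26 with a 95% interval from -0.94 to 1.46 (limma adjusted p = 1).

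Markers of granulocyte precursors, the other cells known to make Lcn2, were measured beside it. Of 16 listed markers other than Lcn2, 15 were tested, and their summed signal was 196119 and 113237 in wildtype and 194362 and 115846 in heterozygous liver. None of them was at 0, and their part in the Lcn2 signal was not tested. The specific granule genes went with the array number as Lcn2 did. Ltf, lactoferrin, had 9192 and 4608 in wildtype and 8215 and 4262 in heterozygous liver. For Camp, the cathelicidin gene, the signals were 16708 and 8709 against 17026 and 9485, and for Ngp, a granule protein gene, 28252 and 14526 against 26777 and 14126. Their ratios of array 1 to array 2 were 1.99, 1.92 and 1.94 in wildtype liver. Genes of the earlier, azurophil granules differed less by number in wildtype liver, with ratios of 1.01 for Mpo, 1.35 for Elane, 1.23 for Prtn3 and 1.30 for Ctsg, and that contrast was not tested. Ltf and Ngp were lower in heterozygous liver within both numbers and Camp higher, with log2 differences of -0.14, -0.06 and 0.08. The receptor gene of lipocalin 2, Slc22a17, had 198 and 193 in wildtype and 165 and 185 in heterozygous liver.

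**Figure D3:**
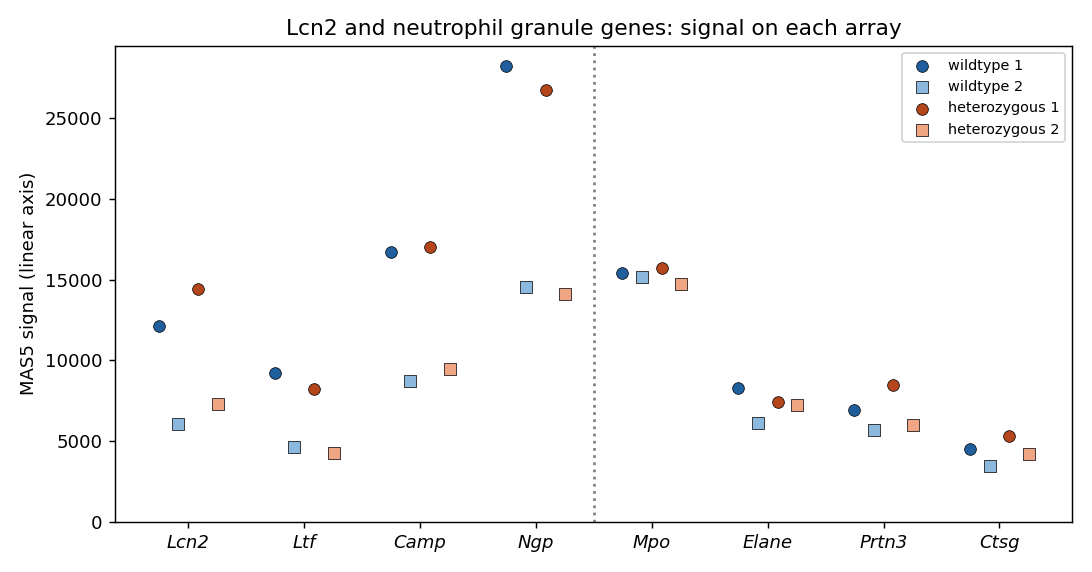
MAS5 signal (linear axis from 0) of Lcn2 and 7 neutrophil granule genes on each array, with the specific granule genes Lcn2, Ltf, Camp and Ngp left of the dotted line and the azurophil granule genes Mpo, Elane, Prtn3 and Ctsg right of it. Left of the line both circles (arrays numbered 1) lie well above both squares (arrays numbered 2), with wildtype ratios of 1.92 to 2, while for Mpo the wildtype ratio is 1.01.

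Crp and Apcs encode the short pentraxins, disc-shaped pattern recognition proteins of 5 subunits that bind microbial surfaces and nuclear debris and recruit complement. Both lie on chromosome 1. Crp had signals of 4383 and 2852 in wildtype and 3401 and 2245 in heterozygous liver. Each heterozygous array was lower than the wildtype array of its number, with ratios of 0.776 and 0.787, and the heterozygous array 1 still exceeded the wildtype array 2. The means were 3617 ± 1083 and 2823 ± 817 (SD, n = 2 each), and the log2 difference was -0.35 with a 95% interval from -1.19 to 0.48 (limma adjusted p = 1).

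Apcs had 8757 and 3880 in wildtype and 7855 and 3800 in heterozygous liver. Within number the ratios were close to 1, at 0.897 and 0.979, whereas array 1 exceeded array 2 by 2.26-fold in wildtype and 2.07-fold in heterozygous liver. The means were 6319 ± 3449 and 5827 ± 2868 (SD, n = 2 each), with a log2 difference of -0.09 and a 95% interval from -1.42 to 1.23 (limma adjusted p = 1). Both pentraxins were higher on the arrays numbered 1, and their ratios by number were 1.54 for Crp and 2.26 for Apcs in wildtype liver.

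The upstream sequence of the pentraxins is shown because these related genes have the same order of the 4 arrays, while the motifs matched in their promoters differ. Hp, Hpx and Itih4 had that order of arrays too. Each run gives the 250 bases before the transcription start in RefSeq (build GRCm38.p6), 5' to 3' on the gene's strand, with matched motifs in capitals. In all, 6 motifs were searched on both strands, chosen with the expression values known. STAT factors were represented by TTCNNNGAA and the type 2 element of the interleukin 6 response by CTGGGAA. For C/EBP factors the motif was TTNNGNAAT, for the partial site of HNF1 it was GTTAAT and for the TATA box it was TATAAA. NF-kB was searched by its consensus. Matches of different motifs may overlap.
Crp, chr1:172697806-172698055, plus strand: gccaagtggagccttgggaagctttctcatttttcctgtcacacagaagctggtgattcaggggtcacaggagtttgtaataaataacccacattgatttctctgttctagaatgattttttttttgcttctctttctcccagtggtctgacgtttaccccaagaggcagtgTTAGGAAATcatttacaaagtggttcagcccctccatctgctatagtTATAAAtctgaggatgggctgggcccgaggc
Apcs, chr1:172895055-172895304, minus strand: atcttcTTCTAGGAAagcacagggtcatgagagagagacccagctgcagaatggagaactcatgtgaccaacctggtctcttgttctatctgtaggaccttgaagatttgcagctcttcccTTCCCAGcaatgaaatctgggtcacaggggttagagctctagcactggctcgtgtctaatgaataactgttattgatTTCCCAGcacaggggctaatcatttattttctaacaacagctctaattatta

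Crp matched TTNNGNAAT from base -78 to -70 and TATAAA from -31 to -26, counted back from the transcription start. Apcs matched TTCNNNGAA from -244 to -236 and CTGGGAA, on the minus strand of the gene, from -129 to -123 and from -52 to -46. In all, 8 of the 10 acute phase genes had an entry in the promoter table, the exceptions being Hp and Orm1. A gene was counted if any of its promoters matched, whereas the shares below are over single promoters. Cp had 2 promoters, and its GTTAAT and TATAAA matches lay in different ones. TTCNNNGAA was found in 2 of these 8 genes (Apcs and Itih4) against 7.02% of 32851 promoters of the same length, and CTGGGAA in 1 (Apcs) against 9.10%. TTNNGNAAT was found in 2 (Crp and Serpina3n) against 10.2%, GTTAAT in 1 (Cp) against 6.43%, TATAAA in 2 (Cp and Crp) against 12.4% and the NF-kB consensus in 0 against 7.25%. A match describes letters in this window and is not a measured site of binding.

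Serpina3n and Itih4 belong to the protease inhibitor side of the response. Serpina3n, a serpin that inhibits neutrophil and mast cell proteases such as cathepsin G, had signals of 561 and 85.0 in wildtype and 515 and 603 in heterozygous liver. Wildtype array 2 was low and the other 3 arrays lay close together. The ratio within number was 0.918 for the arrays numbered 1 and 7.09 for those numbered 2. The means were 323 ± 337 in wildtype and 559 ± 62.1 in heterozygous liver (SD, n = 2 each). The log2 difference of 1.25 was the largest of the 9 genes, with a 95% interval from -0.79 to 3.29 (limma adjusted p = 1). Without wildtype replicate 2 it was -0.01. Its single probe set gives no second measurement.

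Itih4, a heavy chain of the inter-alpha-trypsin inhibitor family that is cleaved by kallikrein, had 19792 and 8487 in wildtype and 13042 and 7248 in heterozygous liver. It was lower in heterozygous liver within both numbers, with ratios of 0.659 and 0.854. The means were 14140 ± 7993 and 10145 ± 4097 (SD, n = 2 each), and the log2 difference was -0.41 with a 95% interval from -1.68 to 0.85 (limma adjusted p = 1). Its neighbours in RefSeq, Itih3 and Itih1, were lower within both numbers too. Itih3 had 26781 and 17306 in wildtype and 18268 and 14577 in heterozygous liver. Itih1 had 3383 and 2399 against 1724 and 1913, so its heterozygous arrays lay below both wildtype arrays, with a log2 difference of -0.64 (limma adjusted p = 1). The family members Itih2 and Itih5 had log2 differences of -0.30 and -0.51. Itih2 had 21056 and 13836 against 14554 and 13163.

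The promoters of these inhibitor genes are shown because, unlike the pentraxins, they differed in the order of arrays. Serpina3n was the tested gene without both arrays numbered 1 above both numbered 2, while Itih4 had them so. Capitals again mark matched motifs.
Serpina3n, chr12:104406458-104406707, plus strand: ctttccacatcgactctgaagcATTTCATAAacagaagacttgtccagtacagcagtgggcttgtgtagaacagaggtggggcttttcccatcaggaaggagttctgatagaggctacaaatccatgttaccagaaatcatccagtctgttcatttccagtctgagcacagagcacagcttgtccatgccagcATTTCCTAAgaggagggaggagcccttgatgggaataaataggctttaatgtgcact
Itih4, chr14:30886226-30886475, plus strand: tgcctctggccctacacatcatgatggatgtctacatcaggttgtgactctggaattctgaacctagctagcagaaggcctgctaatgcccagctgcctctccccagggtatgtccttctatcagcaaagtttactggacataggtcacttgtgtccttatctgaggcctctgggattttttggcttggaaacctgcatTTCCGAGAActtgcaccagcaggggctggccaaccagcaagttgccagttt

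Serpina3n matched TTNNGNAAT on the minus strand of the gene from -228 to -220 and from -57 to -49. Itih4 matched the palindrome TTCNNNGAA from -51 to -43. Serpina3n held none of the other motifs in this window, and Itih4 none of the others.

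Saa4 encodes serum amyloid A4, an apolipoprotein of high density lipoprotein. Its brighter probe set had signals of 3970 and 2404 in wildtype and 2781 and 2427 in heterozygous liver. Wildtype array 1 was high and the other 3 arrays were close. The means were 3187 ± 1108 and 2604 ± 251 (SD, n = 2 each), and the log2 difference was -0.25 with a 95% interval from -1.01 to 0.52 (limma adjusted p = 1). The second probe set had 1555 and 815 in wildtype and 687 and 858 in heterozygous liver. Wildtype array 1 was again high, but heterozygous array 1 lay below heterozygous array 2, so by this probe set Saa4 would not count among the genes higher on both arrays numbered 1. Its log2 difference was -0.54 (limma adjusted p = 1). Among its relatives in the same gene cluster, Saa3 had 2947 and 483 in wildtype and 2249 and 416 in heterozygous liver. Saa1 and Saa2, the inducible plasma forms, were not bright enough to be tested, with signals of 32.3 to 52.3 and of 26.1 to 58.5 over the 4 arrays. These genes are close copies, so a probe set of 1 of them can also pick up another.

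Orm1 encodes orosomucoid 1, a lipocalin that carries drugs and steroids in plasma. Its only probe set had signals of 45.7 and 37.6 in wildtype and 2.87 and 20.0 in heterozygous liver, within the dimmer 50% of probe sets that were not tested. The heterozygous arrays lay below the wildtype arrays, and no fold is given at such signals. Its neighbours in RefSeq, Orm2 and Orm3, were as dim, at 1.62 to 22.4 and 4.47 to 8.61.

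How far each gene repeated its genotype difference between the numbers varied. The differences within number lay within 0.15 of each other on the log2 scale for 5 of 9 genes, against a share of 30.6% among the 11691 genes. The limit of 0.15 was not planned beforehand. The share covers tested genes of any brightness, so it is not a matched comparison. These 5 were Crp (gap of 0.02), Lcn2 (0.02), Hp (0.05), Hpx (0.08) and Apcs (0.13). The gap was 0.37 for Itih4, 0.52 for Saa4, 0.68 for Cp and 2.73 for Serpina3n, and the median over all tested genes was 0.26. The intervals of all 9 genes included 0.

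**Figure D4:**
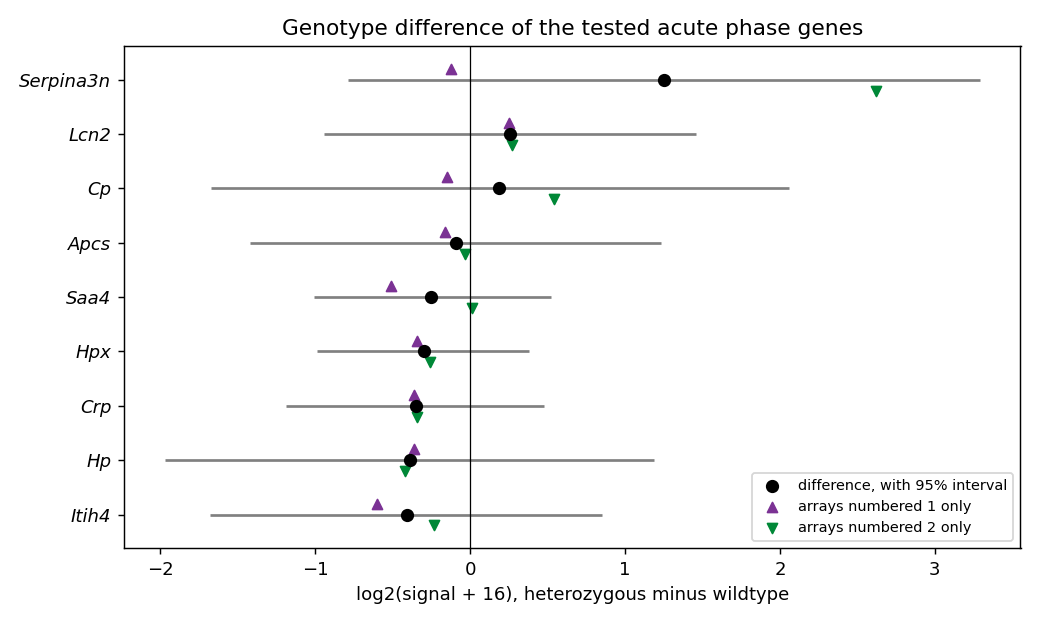
Difference between heterozygous and wildtype liver on the log2(signal + 16) scale for the 9 tested acute phase genes, as the estimate over all 4 arrays (black, bar: 95% interval) and within the arrays numbered 1 or 2 (coloured triangles). Every interval includes 0, and the triangles lie within 0.15 of each other for Crp, Lcn2, Hp, Hpx and Apcs.

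Over the 9 tested genes the median log2 difference between genotypes was -0.25, against -0.02 over all tested genes. It was -0.34 within the arrays numbered 1 and -0.03 within those numbered 2. The median turned with the array left out. It was 0.27 without wildtype replicate 1, the array with the low actin control, and 0.30 without heterozygous replicate 2, and -0.66 without wildtype replicate 2 and -0.49 without heterozygous replicate 1. Leaving out an array also leaves the numbers unequal between genotypes. Hpx and Crp were lower in heterozygous liver under each of the 14 alternatives run for them, with log2 differences of -0.54 to -0.07 and -0.66 to -0.04. The smallest of these differences came without wildtype replicate 1. Most of the alternatives refit the same arrays, and the share of all tested genes that keep their sign is not given here.

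The difference between array numbers was larger than that between genotypes for most of these genes. Its median over the 9 genes was 1.17 on the log2 scale in wildtype and 0.85 in heterozygous liver, against 0.01 and -0.01 over all tested genes. Other transcripts of hepatocytes and granulocytes moved the same way. For the 12 tested hepatocyte markers the medians were 0.68 and 0.71, and 11 of 12 were higher on both arrays numbered 1. Their summed signal was 380760 and 235074 in wildtype and 365734 and 221560 in heterozygous liver. For the 15 granulocyte markers other than Lcn2 the medians were 0.84 and 0.69. After quantile normalization, which gives the arrays 1 common distribution, array 1 still exceeded array 2 by 1.20 and 1.29 for Hp and by 1.81 and 1.14 for Cp, in wildtype and heterozygous liver in turn. For Hpx the excess shrank to 0.20 and 0.16. Some control transcripts were also higher on the arrays numbered 1 in both genotypes, and others were not. The 3' probe set of bioB, a bacterial transcript that the array maker supplies as a spike-in, had 1191 and 397 in wildtype and 1022 and 421 in heterozygous liver, and the 3' probe set of Gapdh had 27187 and 18514 against 28573 and 19180. The 3' probe set of Actb had 11909 and 27202 in wildtype and 35014 and 24712 in heterozygous liver, so the direction by number differed between the genotypes. The part of these controls, and of the hepatocyte and granulocyte markers, in the difference by array number was not tested.

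**Figure D5:**
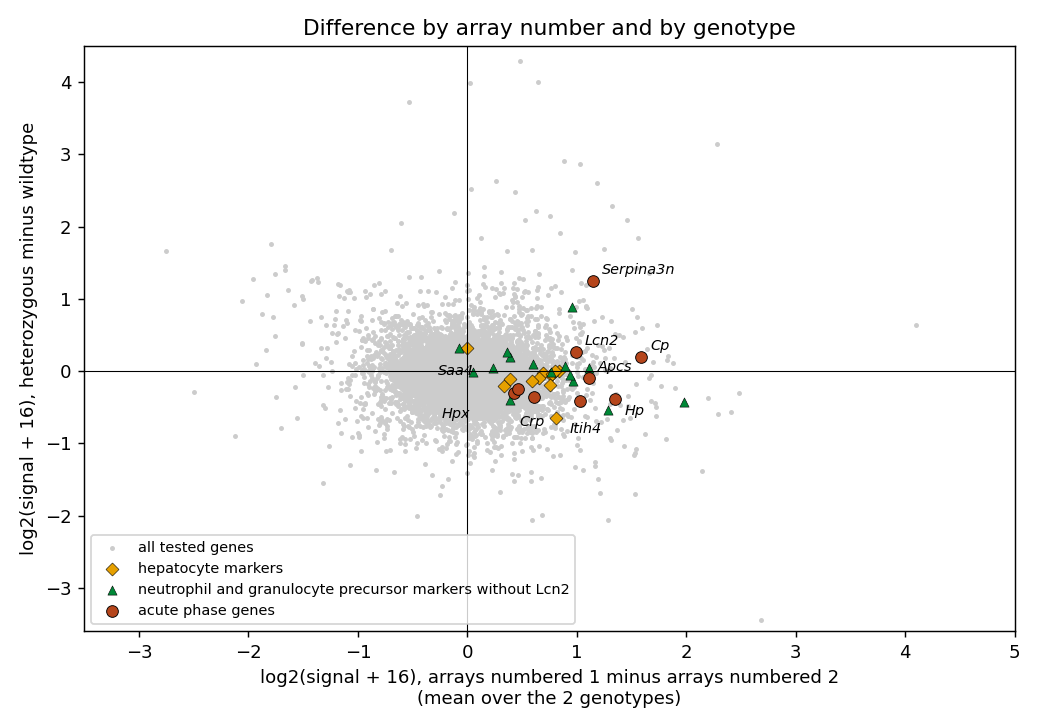
Each tested gene by its difference between arrays numbered 1 and 2 (horizontal, mean of both genotypes) and between heterozygous and wildtype liver (vertical), both on the log2(signal + 16) scale; grey points are all tested genes. The acute phase genes (red) and the hepatocyte (yellow) and granulocyte (green) markers lie mostly right of 0, and the red points scatter about the horizontal line between -0.41 for Itih4 and 1.25 for Serpina3n.

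Other acute phase genes gave a similar picture. Of 26 further positive acute phase genes 19 were tested, of which 1 lay wholly above in heterozygous liver and 0 wholly below, where 14.5% and 18.6% of all tested genes did so. On both arrays numbered 1, 17 of 19 were higher, against 22.0% of all tested genes. Those 17 could lie neither wholly above nor wholly below, so the counts by genotype are not comparable with the shares of all genes. Their median log2 difference was -0.09, against -0.02 over all tested genes. Hamp, the iron hormone hepcidin, was the gene above, with 799 and 341 in wildtype and 15330 and 1472 in heterozygous liver (limma adjusted p = 1). Lbp, which presents bacterial lipopolysaccharide, had 7060 and 3834 against 4216 and 3078, and Cd14, its receptor partner, 287 and 185 against 200.4 and 154. The fibrinogen genes Fga, Fgb and Fgg, chosen after their values were seen, had log2 differences of -0.09, -0.08 and -0.09.

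No negative acute phase gene passed the test either. Of 15 tested, 5 lay wholly below in heterozygous liver and 0 wholly above, beside 18.6% and 14.5% of all tested genes. Their median log2 difference was -0.29. Serpina6, which carries corticosteroids in blood, had 23189 and 22683 in wildtype and 15897 and 18182 in heterozygous liver. Pon1, the paraoxonase of high density lipoprotein, had 2129 and 780.3 against 543 and 753, and Igf1, the growth factor, 614 and 629 against 447 and 508. Alb and Ttr, albumin and transthyretin, likewise chosen, had log2 differences of -0.00 and -0.03.

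Genes of the inducing signals were measured as well. Of 28 tested genes of interleukin 6 and interleukin 1 signalling, 8 lay wholly above in heterozygous liver and 3 wholly below, beside 14.5% and 18.6% of all tested genes. None passed the limma test after adjustment, and the median log2 difference was 0.07. Nfkbiz, the inducible cofactor of NF-kB, had 407 and 435 in wildtype and 851 and 735 in heterozygous liver, with a log2 difference of 0.89 (limma adjusted p = 1). Cebpb, a C/EBP factor of the acute phase, had 1288 and 1106 against 2770 and 1482, and the kinase gene Jak1 2266 and 2684 against 3733 and 3406. Il1b, the cytokine, went the other way, with 160.3 and 176 against 137 and 86.3. Socs3 and Stat3, the feedback inhibitor and the transcription factor of this route, were chosen after their values were seen and had 450.5 and 643 against 909 and 684, and 720 and 1838 against 1605 and 1690. Il6 itself was too dim to be tested, at 6.05 to 89.9. Among 11 tested genes of the glucocorticoid receptor and its targets, 1 lay wholly above and 1 wholly below (all tested genes: 14.5% and 18.6%), with a median of -0.08. The receptor gene, Nr3c1, was the one above, at 1534 and 1094 in wildtype and 2005 and 1719 in heterozygous liver (limma adjusted p = 1).

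Relatives and partners of the acute phase proteins completed the lists. Some genes stand in more than 1 list, such as Itih1, Heph, C1qc, Mmp9 and Alb, so the counts are not separate evidence. Over all tested genes 18.6% lay wholly below in heterozygous liver and 14.5% wholly above. Of 9 tested relatives 5 lay below and 0 above, with a median log2 difference of -0.51, and among 17 tested receptors and partners 7 lay below and 1 above, with a median of -0.16. F5, coagulation factor V and a structural relative of ceruloplasmin, had 2598 and 1852 in wildtype and 1133 and 1714 in heterozygous liver. Mmp9, the gelatinase that lipocalin 2 binds, had 458 and 345 against 344 and 259. Markers of macrophages, which clear the haptoglobin complex, were divided, with Vsig4 at 811 and 364 in wildtype and 130 and 194 in heterozygous liver and Marco at 2257 and 1738 against 5024 and 3274. Of 13 such markers tested 5 lay below and 1 above, and of 7 erythroid markers tested 2 lay below and 0 above, to be read against the same 18.6% and 14.5%. The part of these cell types in the acute phase signals was not tested. None of these genes passed the limma test after adjustment.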

How the data were processed

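The deposited value table holds 1 intensity per probe set and array on a linear scale. MAS5 is named in the submitters' processing notes, and the trimmed mean of 500 was read from the deposited values. Of 45037 probe sets besides 64 controls, 34945 name 1 gene. The brighter 50% by mean log2(signal + 16) entered limma 3.58.1 (R 4.3.3; lmFit, eBayes, genotype only), with Benjamini-Hochberg adjustment over all 22519. This ranking replaced a first ranking by mean linear signal after the results of both had been seen, partly to match the number of genes in an earlier account of these data; the first ranking is given as an alternative. Residual degrees of freedom were 2, and the prior added 3.24. With 2 arrays a side, exact permutation reaches no two-sided p under 0.333. The number of arrays limits the precision.

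The members and lists were chosen with earlier results of these data known, and the promoter window and motifs after the values were seen. All members are named, and from each other list up to 4 genes with the smallest p and genes a member's result turns on. Receptors, family members and granule genes beyond these were chosen after their values were seen. The fitting code was tested on simulated data.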

Additional observations from a re-analysis of the deposited data

How the results depend on the processing

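Of 15 alternatives, 1 was added after the data were seen, namely the first ranking of probe sets by mean linear signal. Under it 11676 genes were tested, 0 probe sets passed (smallest adjusted p 0.387, against 0.297), 398 were higher and 518 lower at an unadjusted p under 0.05, and the median difference of the acute phase genes was again -0.25. No acute phase gene passed under any alternative that gives a test, the lowest adjusted p being 0.57 for Serpina3n without wildtype replicate 1. Over all probe sets 5 passed with median centring and 3 with a trended and robust prior. Acute phase genes wholly below numbered 1 with no filter (Orm1) and 1 with quantile normalization (Hpx). Leaving out an array gave 0 to 7 wholly below, 0 to 4 wholly above and a median of -0.66 to 0.30. For none of these settings is the share of all tested genes given here, so the counts show neither an excess nor a lack. With only 1 array left in a genotype, any gene lies wholly below or above more easily. The shares of 18.6% and 14.5% from all 4 arrays therefore do not apply to those counts. With an array left out, log2 differences ran from -1.08 to 0.30 for Hp, -0.77 to 1.16 for Cp, -0.61 to 0.11 for Saa4, -0.68 to 0.49 for Apcs, -0.01 to 2.51 for Serpina3n, -0.24 to 0.76 for Lcn2 and -1.02 to 0.20 for Itih4, each turning sign. Leaving out an array also unbalances the array numbers, and the cause was not tested.

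Deviations of same-numbered arrays correlated with r = 0.383 across 22519 probe sets, which are not independent. What the shared number and code of the 2 pairs mark is not given in the labels. With the replicate block the median was -0.25, 0 probe sets passed and the lowest adjusted p of an acute phase gene was 0.685, so no call changed.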

Other observations

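Some acute phase genes that are not among the 10 differed strongly by array number, Fgl1 and Saa3 far more than by genotype. Fgl1, a fibrinogen-like hepatokine, had signals of 1142 and 109 on wildtype arrays 1 and 2 and 3302 and 89.3 on heterozygous arrays 1 and 2. Saa3 differed 6.11-fold between the numbers in wildtype and 5.41-fold in heterozygous liver. Lrg1, a leucine-rich plasma glycoprotein induced with the acute phase, had 349 and 61.9 in wildtype and 388 and 155 in heterozygous liver. Mbl2, a mannose-binding lectin, had 669 and 112 against 293 and 138. For Lrg1 the ratio of heterozygous to wildtype signal was 1.11 within number 1 and 2.5 within number 2. For Mbl2 it was 0.438 within number 1 and 1.23 within number 2, so the direction turned. The signals of Lrg1 and Mbl2 overlapped between the genotypes, and neither gene passed the limma test after adjustment. Their ratios by number in heterozygous liver were 2.51 and 2.13. These genes were picked after their values were seen, and no test was made of the array number.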
